A study of Mus musculus with 8 samples.

Results

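Glul, Slc1a3 and Sparcl1 are 3 genes by which astrocytes handle glutamate and shape synapses, and on these 2-colour brain arrays they were covered by 5 of the 12131 named spots. Glul was named at spots 2559 and 19164, Slc1a3 at spot 2333, and Sparcl1 at spots 3422 and 8209. The genes were chosen by function, as the glutamine synthetase, the glutamate transporter GLAST and a secreted synapse organiser, out of 8653 named genes on an array of 20794 spots. All 5 spots had usable values on all 8 arrays.

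Astrocytes clear glutamate from the synapse through transporters of the Slc1 family. GLAST, encoded by Slc1a3, is one of the main astrocytic transporters and is prominent in cerebellar Bergmann glia. Glutamine synthetase, encoded by Glul, then joins ammonia to glutamate to make glutamine, which is passed back to neurons and rebuilt into glutamate. Sparcl1, also called hevin or SC1, is a secreted matrix protein of the SPARC family that astrocytes release and that promotes the formation of excitatory synapses.

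Brains of 4 male mutant mice, 19 weeks old, were each compared with 1 RNA pool made from brains of age-matched wildtype males. The series' design text gives the mutant genotype as ADAR-/-/GluR-BR/R, and its title names ADAR2, the adenosine deaminase encoded by Adarb1 that edits double-stranded RNA. GluR-BR/R stands for Gria2 alleles whose genomic codon already gives arginine in this AMPA receptor subunit, so the mutants differ from the pool at both loci and no group carried either change alone. The design text counts 4 mice in the pool and the labelling protocol counts 6. The sources used here do not name the strain. A mouse's RNA went onto 2 arrays of exchanged dyes, the replicate was the mouse (n = 4), and the pool counts as 1 control sample whose own spread is not measured. In whole brain RNA, a different number of astrocytes and a different amount of transcript per astrocyte cannot be told apart. A table of ratios does not show whether the astrocyte transcripts were well above background.

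Values below are log2 ratios of the channels minus the median of their array, so 0 is the middle of the array and 1 is a ratio 2 times that of the middle. The labels do not say which channel is the numerator, so which of mutant and wildtype is higher cannot be settled. Each spot is therefore described by 2 quantities. The mean ratio averages a mouse's 2 arrays, and it contrasts mutant and pool if every array was divided in the same direction. The swap component takes the array that had the mutant in Cy5, subtracts the array that had it in Cy3 and divides by 2, and it measures mutant over pool if each ratio is Cy5 over Cy3. On that reading the mean ratio would hold what depends on the dye and the spot. The arrays correlated positively across spots in every pair, with r from 0.154 to 0.388 between arrays of opposite orientation from different mice and from 0.313 to 0.413 between the 2 arrays of a mouse. Within an orientation r was 0.425 to 0.677 for pairs with the mutant in Cy3 and 0.224 to 0.401 for pairs with the mutant in Cy5, so the Cy3 arrays of different mice were more alike than a mouse's own 2 arrays. The standard deviation of the values was 0.812 to 0.852 with the mutant in Cy5 and 1.044 to 1.319 with the mutant in Cy3.

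Adarb1, the disrupted gene, had swap components of -1.23 ± 0.163 at spot 18422 and -1.33 ± 0.267 at spot 18759 (moderated SE, n = 4, limma adjusted p = 0.0383 and 0.0424). These were the 8th and the 4th most negative of 18797 spots. Its other spot, 14946, stood at -0.10 ± 0.127 (adjusted p = 0.628). The mean ratios of Adarb1 were positive at all 3 spots, with 0.70 ± 0.168 at spot 18422 (adjusted p = 0.0297), 0.26 ± 0.422 at spot 18759 (0.667) and 0.12 ± 0.174 at spot 14946 (0.631). The sources used here do not say which part of the transcript a spot covers, so a spot outside the deleted part would check nothing. The names rest on a shift of 11 spots between annotation and values, found in the values themselves. At that shift the mean ratios of 2 spots of a gene correlated with a Spearman rho of 0.2536 across 2747 genes, against at most 0.069 at the other shifts tried, up to 20 spots either way.

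The upstream sequences of Glul and Slc1a3 are shown because both genes lay well above the middle of the array in the mean ratio. RefSeq's promoter table (GRCm38.p6) matched 2 of the 3 genes, and Sparcl1 is named only. The Glul window is chr1:153899679-153899928 on the plus strand and the Slc1a3 window is chr15:8710808-8711057 on the minus strand, each the 250 bases before the start, 5′ to 3′, with every CCAAT or its reverse complement in capitals.
Glul: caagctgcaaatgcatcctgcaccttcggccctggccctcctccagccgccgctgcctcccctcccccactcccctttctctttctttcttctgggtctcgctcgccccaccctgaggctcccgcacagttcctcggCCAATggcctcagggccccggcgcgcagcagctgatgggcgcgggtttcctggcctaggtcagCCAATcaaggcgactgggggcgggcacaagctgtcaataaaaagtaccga
Slc1a3: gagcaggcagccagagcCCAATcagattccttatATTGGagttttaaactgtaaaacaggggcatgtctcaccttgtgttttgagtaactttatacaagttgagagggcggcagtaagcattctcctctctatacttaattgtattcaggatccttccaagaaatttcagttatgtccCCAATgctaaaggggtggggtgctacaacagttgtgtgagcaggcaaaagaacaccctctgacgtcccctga
CCAAT, the core letters of the box bound by NF-Y, occurred 2 times in the Glul window and 3 times in the Slc1a3 window, and at least once on either strand in 33.8% of 32851 windows of this length. GGGCGG, the letters of a GC box, occurred 1 time in each window and in 32.7% of all windows. TTGGC, the letters of one arm of the nuclear factor I palindrome, was found 2 times in the Glul window, each on the minus strand and overlapping a CCAAT, and not in the Slc1a3 window (41.5% of all windows). TATAAA was found 1 time in the Slc1a3 window, on the minus strand, and not in the Glul window (12.4% of all windows). The E-box CANNTG, which reads the same on both strands, was found 2 times for Glul and 1 time for Slc1a3 (66.2% of all windows). The Glul window had 64.8% G and C, the Slc1a3 window 44.8% and the median window 52.4%. These matches are a description of the letters and not of binding.

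Glul, whose product is the only enzyme known to make glutamine in the brain, had the highest mean ratios of the 5 spots, and its 2 spots answered the exchange of dyes differently. Glul lies on chromosome 1 (GRCm38.p6, 153899929 to 153909723). At spot 2559 mice 1 to 4 read 0.33, 0.37, 0.60 and 0.71 with the mutant in Cy5. With the mutant in Cy3 spot 2559 read 2.00, 1.88, 2.19 and 1.78. Every value lay above the array median, and the arrays of the 2 orientations did not overlap. The mean ratio of spot 2559 was 1.23 ± 0.131 (moderated SE, n = 4, limma adjusted p = 0.00924), a ratio 2.35 times that of the middle of the array. Its swap component was -0.73 ± 0.117 (adjusted p = 0.0383), with the mice at -0.84, -0.76, -0.80 and -0.54.

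At spot 19164 Glul read 1.32, 1.18, 1.89 and 1.73 with the mutant in Cy5. With the mutant in Cy3 the same spot read 1.04, 1.40, 0.37 and 1.19. Here the orientations overlapped, and in mice 1, 3 and 4 the array with the mutant in Cy5 was the higher one. The mean ratio was 1.27 ± 0.135 (adjusted p = 0.00924), rank 57 of 20595 spots from the top, and spot 2559 had rank 98. The swap component of spot 19164 was 0.26 ± 0.167 (adjusted p = 0.33), with the mice at 0.14, -0.11, 0.76 and 0.27.

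The 2 Glul spots gave nearly the same mean ratio, with spot 2559 lower by 0.03 on average (SD 0.215, n = 4, exact sign-flip permutation p = 0.875, two-sided). Their swap components differed by -0.995 (SD 0.399), with spot 2559 lower in 4 of 4 mice. With the mutant in Cy5 spot 2559 was lower in all 4 mice, on average by -1.03 (SD 0.202), and with the mutant in Cy3 it was higher in all 4 mice, on average by 0.96 (SD 0.608). Each of the last 3 differences had an exact two-sided p of 0.125, the smallest that 4 mice can give. Of the 766 spots with a mean ratio of at least 1, 36 (4.7%) had a swap component above 0, and spot 19164 was one of them. Averaged over both spots, Glul had a mean ratio of 1.25 ± 0.116 (adjusted p = 0.00755 over 8605 genes) and a swap component of -0.23 ± 0.118 (adjusted p = 0.235). The average therefore describes neither spot in the swap component.

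**Figure D1:**
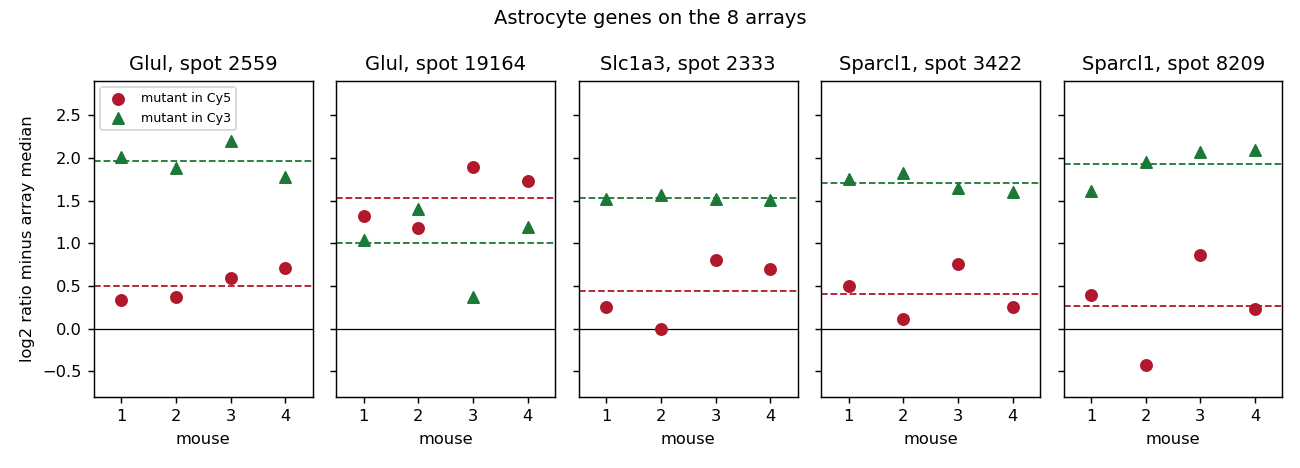
The log2 ratio minus the array median (vertical axis) of the 5 spots in mice 1 to 4 (horizontal axis), with the mutant in Cy5 (red circles) or Cy3 (green triangles); dashed lines are the means of the 4 arrays of an orientation. At 4 spots all green triangles lie above all red circles, and at Glul spot 19164 the orientations overlap and 3 of 4 mice are higher with the mutant in Cy5.

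Slc1a3, which encodes the transporter GLAST, was measured by spot 2333 alone, and it had the lowest mean ratio of the 5 spots. The gene lies on chromosome 15 (GRCm38.p6, 8634124 to 8710807). With the mutant in Cy5 the mice read 0.25, -0.01, 0.81 and 0.69. With the mutant in Cy3 they read 1.51, 1.57, 1.51 and 1.51, which is within 0.06 of each other. The orientations did not overlap, and the value just below 0 came from mouse 2. Among all spots of an array, Slc1a3 stood between the percentiles 49.5 and 91.6 with the mutant in Cy5 and between 92.4 and 94.8 with the mutant in Cy3. Its mean ratio was 0.98 ± 0.14 (moderated SE, n = 4, limma adjusted p = 0.00965), rank 850 from the top. Its swap component was -0.55 ± 0.128, with the mice at -0.63, -0.79, -0.35 and -0.41. It missed the threshold over spots (adjusted p = 0.0553) and passed over genes (adjusted p = 0.048), where the same values were adjusted over 8119 genes. It also passed with whole-number ratios removed (-0.55, adjusted p = 0.0313). None of its own values was such a ratio, and the adjustment then ran over 12290 spots in place of 18797. Swap calls over the whole array rose from 1473 to 2149 in that setting. The adjusted p of spot 2333 over all alternatives ran from 0.0313 to 0.808.

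Sparcl1, the synapse organiser hevin, gave the same picture at both of its spots. The gene lies on chromosome 5 (GRCm38.p6, 104079108 to 104114088). At spot 3422 it read 0.50, 0.11, 0.75 and 0.26 with the mutant in Cy5. The same spot read 1.75, 1.82, 1.64 and 1.60 with the mutant in Cy3. The value of mouse 4 there equals a ratio of small whole numbers, as weak spots give and as 5.37% of the values on that array did. The match alone does not show that the spot was weak. Without that value the spot has no swap component in all 4 mice. At spot 8209 the values were 0.39, -0.43, 0.86 and 0.23 with the mutant in Cy5. With the mutant in Cy3 spot 8209 read 1.61, 1.95, 2.07 and 2.09. Neither spot overlapped between orientations, and in both mouse 2 was lowest and mouse 3 highest with the mutant in Cy5. The mean ratios were 1.05 ± 0.133 and 1.10 ± 0.164 (limma adjusted p = 0.00924 and 0.0101). The swap components were -0.65 ± 0.122 and -0.83 ± 0.145 (adjusted p = 0.0396 and 0.0383). The spots differed by -0.04 in the mean ratio (SD 0.243, exact sign-flip permutation p = 0.75, n = 4) and by 0.18 in the swap component (SD 0.152, higher at spot 3422 in 3 of 4 mice, exact p = 0.25). Averaged, Sparcl1 had a mean ratio of 1.08 ± 0.132 and a swap component of -0.74 ± 0.124 (adjusted p = 0.00755 and 0.0297 over genes).

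All 5 spots were called in the mean ratio, where 30.4% of the 20595 spots tested were, and all 5 were positive (17% positive and 13.3% negative over all spots). By gene all 3 were called and positive, against 29.1% of 8605 genes called in either direction. In the swap component 3 of the 5 spots were called, against 7.84% of 18797, and all 3 were negative (6.43% negative and 1.41% positive over all spots). By gene Slc1a3 and Sparcl1 were called, against 7.9% of 8119 genes. Without subtraction of the array medians positive calls made up 37.4% of the spots called in the mean ratio, against 56.1% with it, and all 5 spots remained positive and called. In 4 of the 5 every array with the mutant in Cy3 lay above every array with the mutant in Cy5, which held for 16.7% of the spots with 8 values. With the arrays scaled to equal spread the 5 mean ratios stayed past the threshold (adjusted p up to 0.0308), while no spot of the array was called in the swap component and the 5 spots had adjusted p from 0.177 to 0.25. When the 4 mutant-in-Cy5 arrays stood alone all 5 spots were still positive, from 0.26 to 1.53, and none passed (adjusted p from 0.0617 to 0.523). None of the 19898 spots tested there passed either. Leaving out any 1 mouse ended every swap call (adjusted p from 0.0991 to 0.191 at the 4 spots below 0) and no call in the mean ratio (0.0307 to 0.0466). Over the whole array no spot had a swap call without 1 mouse, and calls in the mean ratio fell from 6256 to between 2483 and 3931.

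**Figure D2:**
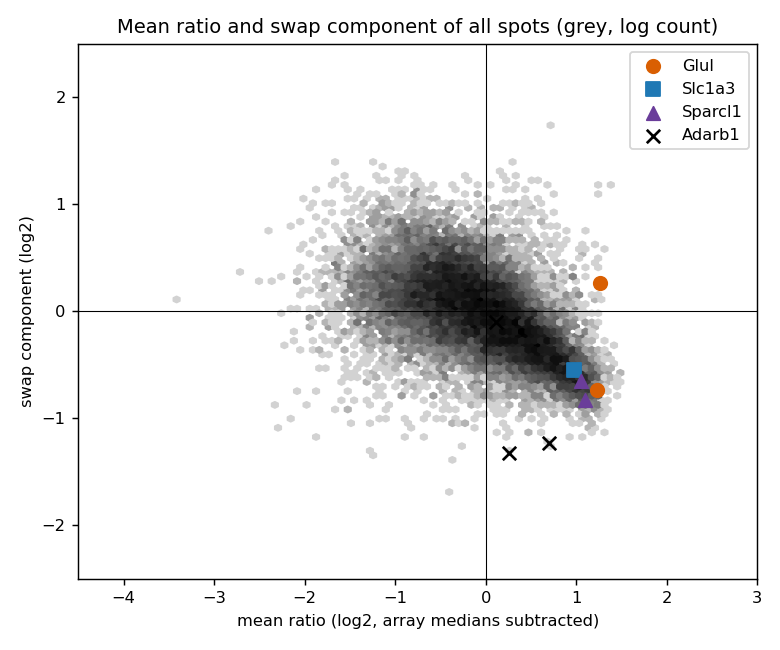
Mean ratio (horizontal axis, log2) against swap component (vertical axis, log2) of the spots with values on all 8 arrays, shaded by their number on a log scale, with the spots of Glul, Slc1a3, Sparcl1 and Adarb1 marked. Spots with a high mean ratio mostly have a negative swap component, where 4 of the 5 astrocyte spots lie; Glul spot 19164, at 1.27 and 0.26, lies above that band, and Adarb1 spots 18422 and 18759 lie below it.

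The swap components of Slc1a3, Sparcl1 and Glul spot 2559 followed the band in which most spots of high mean ratio lie. After removal of the trend that links a mouse's swap component to the other mice's mean ratios, they were -0.06 for Slc1a3, -0.12 for Glul spot 2559, and -0.12 and -0.29 for Sparcl1 (adjusted p from 0.339 to 0.808). Glul spot 19164 moved away from 0, to 0.89 (adjusted p = 0.178). Adarb1 spots 18422 and 18759 kept -0.91 and -1.23 and missed the threshold (adjusted p = 0.139 and 0.232).

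The genes with values most like each member were taken from 8118 others by the mean absolute difference over the 8 arrays. For Sparcl1 these were Calm3, a calmodulin gene, at 0.097, Rtn1, a reticulon of neurons, at 0.11 and Eef2, a translation elongation factor, at 0.114. For Slc1a3 they were the RNA helicase gene Ddx1 at 0.102, Armcx2 at 0.11 and Paxx, a DNA repair factor, at 0.113. For Glul, averaged over its discordant spots, they were the respiratory chain genes Atp5j at 0.166 and Cox7c at 0.201, and Sncb, beta-synuclein of neurons, at 0.21. None of these 9 genes is on the astrocyte lists. Those lists are a small part of the 8118 genes, with 21 astrocyte markers having values on all 8 arrays. The absence therefore says little about the members. The members were not among each other's nearest genes. Slc1a3 and Sparcl1 differed by 0.245, which made Slc1a3 the 140th nearest to Sparcl1 and Sparcl1 the 261st nearest to Slc1a3. Slc1a3 and Glul differed by 0.331, with Slc1a3 at rank 63 from Glul and Glul at rank 589 from Slc1a3. Sparcl1 and Glul differed by 0.508, with ranks 557 from Glul and 753 from Sparcl1.

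Around the members, the glutamate-glutamine cycle was examined through 21 other genes, of which 16 were measured, 5 of them positive and called in the mean ratio and 1 negative, against 17.5% and 11.6% of all 8605 genes. Their median was 0.34, against -0.02 over all genes. Of the 5 positive calls 4 were enzymes that make or use glutamate. Glud1, glutamate dehydrogenase, stood at 1.10 ± 0.119 in the mean ratio (adjusted p = 0.00755) and at -0.62 ± 0.106 in the swap component (0.0308). Got1 and Got2, the cytosolic and mitochondrial aspartate aminotransferases, had mean ratios of 0.80 ± 0.144 and 0.83 ± 0.123 and swap components of -0.77 and -0.67 (adjusted p = 0.0297 and 0.0301 for the latter). These 3 were the swap calls of the list, out of 15 with values on all arrays (6.82% of all genes were negative and called). Without any 1 mouse, with arrays scaled, as deposited or with the trend removed, no gene of any list or of the whole array was called in the swap component. Without 1 mouse the mean ratio left 3 to 5 positive calls and 0 or 1 negative call in the cycle list. Over all genes positive calls also fell without 1 mouse, from 1503 to between 742 and 1035. Negative calls over all genes fell from 1002 to between 422 and 707. With the mutant in Cy5 alone no gene of any list or of the whole array was called. Slc38a1, a glutamine transporter of neurons, stood at 0.97 ± 0.138 in the mean ratio with a swap component of -0.11 (adjusted p = 0.564). Slc38a3, the glutamine exporter of astrocytes, stood at 0.50 ± 0.153 (adjusted p = 0.0586), Slc38a2 at 0.27 (0.308) and Slc38a5 at -0.47 (0.136). The spots of Slc38a2 disagreed, with 0.59 at spot 2883 (limma adjusted p = 0.0294 over spots) and -0.05 at spot 5285 (0.916). Of the enzymes that turn glutamate into GABA, Gad2 was positive at 0.61 ± 0.176 (adjusted p = 0.0486) and Gad1 negative at -0.77 ± 0.14 (0.0136). The negative call of Gad1 rested on 1 of its 2 spots (-1.64 at spot 10231, 0.10 at spot 18594), and the list had no negative call without mouse 2, 3 or 4. Pcx, the pyruvate carboxylase that replenishes glutamate carbon in astrocytes, stood at -0.11 (adjusted p = 0.727), and the vesicular transporter gene Slc17a8 at -0.31 (0.512).

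Of the other glutamate and neutral amino acid transporters of the Slc1 family, none passed by gene. Slc1a2, which encodes GLT-1, the dominant glutamate transporter of forebrain astrocytes, stood at 0.40 ± 0.158 in the mean ratio (adjusted p = 0.109) and at -0.66 ± 0.182 in the swap component (0.0732), over 4 spots that disagreed. Its spot 16811 stood at 1.20 ± 0.128 and -0.76 ± 0.138 (limma adjusted p = 0.00924 and 0.0385 over spots), with 0.19 to 0.92 in Cy5 and 1.73 to 2.15 in Cy3, as the spots of Sparcl1 did. Spots 9656 and 10637 had mean ratios of 0.28 and 0.51 (adjusted p = 0.468 and 0.0676), and spot 16502 stood at -0.39 (0.461), with values from -4.97 to -0.83 in Cy5. The swap components of spots 9656, 10637 and 16502 were 0.11, -0.28 and -1.69 (limma adjusted p = 0.569, 0.363 and 0.0615). The swap component by gene therefore leaned on spot 16502. In the mean ratio Slc1a1, the transporter of neurons, stood at 0.31 ± 0.118 (adjusted p = 0.0949), Slc1a4 at 0.36 ± 0.132 (0.0908), Slc1a5 at -0.57 (0.281) and Slc1a6 of Purkinje cells at 0.11 (0.679).

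Genes of astrocytic potassium and water handling and of coupling between cells gave 3 positive calls of 5 measured in the mean ratio, with a median of 0.57, and none in the swap component (17.5% of all genes were positive and called in the mean ratio). Without mouse 1, 2 or 3 there were 2 positive calls. Atp1b2, a sodium pump subunit of glia, stood at 1.17 ± 0.159 (adjusted p = 0.00794), Gja1, a gap junction connexin, at 0.86 ± 0.14 (0.0105) and Aqp4, the water channel of astrocyte endfeet, at 0.57 ± 0.125 (0.0222). Kcnj16 stood at -0.21 (0.352) and Mlc1 at 0.15 (0.581). The receptor genes Grm3 and Grm5 of astrocytes, a list of 2, had no measured spot. Of 23 measured astrocyte markers 12 were positive and called, against 17.5% of all genes, and none was negative (11.6% of all genes), with a median of 0.57 in the mean ratio and -0.38 in the swap component, where 3 of 21 were negative and called, against 6.82% of all genes. Without 1 mouse 8 to 12 markers were positive and called, and 2 were negative when mouse 3 was left out. Over all genes, leaving out 1 mouse lowered positive calls from 1503 to between 742 and 1035, and negative calls from 1002 to between 422 and 707. The largest mean ratios were those of Ndrg2 (1.06 ± 0.14), Clu, clusterin (1.03 ± 0.116), the metallothionein gene Mt1 (1.01 ± 0.117) and Apoe, apolipoprotein E (0.98 ± 0.127). Ndrg2, Clu and Apoe were also the 3 swap calls, from -0.72 to -0.63. Of the 23 markers 16 lay above 0 in the mean ratio. Below it, and not called, were Dio2 (-1.41), Cpe (-1.19), S100b (-0.53), Id3 (-0.40), Mt3 (-0.38), Sox9 (-0.05) and Mt2 (-0.01). By spot Id3 spot 5364 (-1, limma adjusted p = 0.0159) and Plpp3 spot 6156 (-0.61, 0.048) were negative and called, against 13.3% of all spots. The other spots of these genes stood at 0.20 for Id3 and at 0.77 and 0.45 for Plpp3. Gfap, the intermediate filament of astrocytes, did not pass by gene (0.25 ± 0.213, adjusted p = 0.398). Its spot 19168 stood at 0.76 ± 0.143 (adjusted p = 0.0156) with a swap component of 0.23, and its spot 30 at -0.26 (0.65).

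In the SPARC family, Sparc, the closest relative of Sparcl1, lay near it in both quantities. Its 3 spots had mean ratios of 1.04, 0.87 and 1.05, all called (adjusted p = 0.00924, 0.0109 and 0.00924), and none of them overlapped between orientations. By gene Sparc stood at 0.99 ± 0.113 with a swap component of -0.62 ± 0.102 (adjusted p = 0.00755 and 0.0297). By spot the swap component passed at spot 5180 (-0.79, limma adjusted p = 0.0383). It missed the threshold at spots 8514 (-0.49, 0.06) and 11130 (-0.56, 0.054). The other measured members were lower. Of 5 measured genes Spock1 and Fstl1 were negative and called in the mean ratio (-1.11 ± 0.249 and -0.50 ± 0.121), against 11.6% of all genes. Neither spot of Fstl1 passed alone (-0.46 at spot 1672 and -0.55 at spot 19209, limma adjusted p = 0.0662 and 0.0666). Without mouse 2, 3 or 4 the family had no negative call. Over all genes there were 422 to 539 negative calls without those mice, against 1002 with all mice. Spock2 (0.58 ± 0.172, adjusted p = 0.0523) and Smoc2 (-0.02, 0.927) were not called. Sparc was also the 1 positive call among 7 measured genes of secreted synapse factors and their partners, against 17.5% of all genes. Cacna2d1 of that list was not called by gene (0.23, adjusted p = 0.267), and its spots disagreed. Spot 1669 stood at 1.01 (limma adjusted p = 0.00924 over spots), and spots 2314 and 6640 at -0.27 and -0.04 (0.461 and 0.894). In the swap component that list had Sparc below 0 and the glypican gene Gpc6 above 0 (0.62 ± 0.122, adjusted p = 0.0386), with 1.07% of all genes positive and called. The call of Gpc6 rested on 1 of its 2 spots (1.02 at spot 2561, 0.21 at spot 1482).

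**Figure D3:**
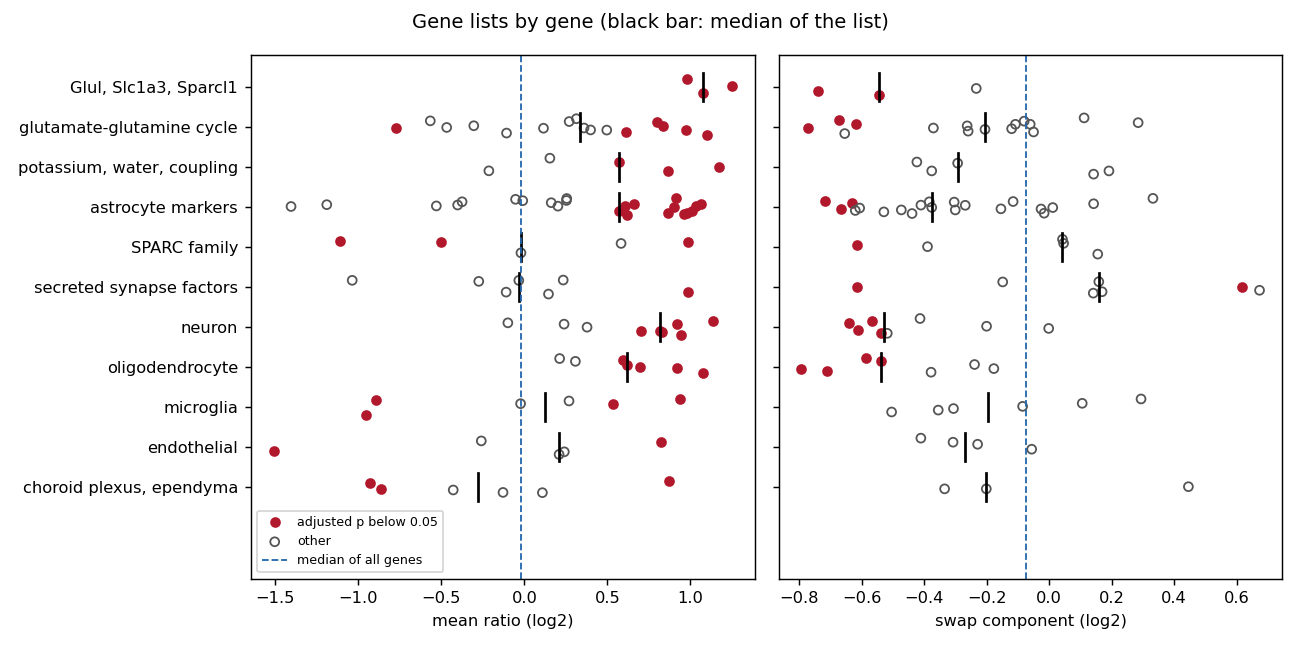
Mean ratio (left) and swap component (right) of each measured gene, in log2, by gene list; filled red points passed the limma test, black bars are list medians and the blue dashed line is the median of all genes. The 3 astrocyte genes lie at the right of the mean ratio, and the medians of the neuron and oligodendrocyte lists, 0.82 and 0.615, lie above that of the astrocyte markers, 0.57.

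High mean ratios were not restricted to astrocyte genes. Of 9 measured neuron markers 6 were positive and called (median 0.82), and of 7 oligodendrocyte markers 5 were (median 0.615), against 17.5% of all genes. Without 1 mouse these were 4 to 6 neuron markers, and 3, 3, 2 and 4 oligodendrocyte markers without mouse 1, 2, 3 and 4. Positive calls over all genes fell as well, from 1503 to between 742 and 1035. Each list had 4 negative swap calls, of 8 and 7 genes, against 6.82% of all genes. Without any 1 mouse neither list had a swap call, and no gene of the whole array had one. Microglia markers had 2 positive and 2 negative calls of 6, endothelial markers 1 and 1 of 5, and markers of choroid plexus and ependyma 1 and 2 of 6, with no swap call in these 3 lists (17.5% of all genes positive and 11.6% negative in the mean ratio). Microglia had 1 positive call without any 1 mouse, endothelium had no negative call without mouse 2 or 4, and choroid plexus and ependyma had 1 negative call without mouse 1 or 4 and none without mouse 2. Negative calls over all genes fell from 1002 to between 422 and 707 without 1 mouse. Sparcl1 is also expressed by endothelial cells, whose markers Cdh5 and Pecam1 stood at 0.82 ± 0.125 and -1.51 ± 0.317 in the mean ratio. The part of other cell types in the values of Glul, Slc1a3 and Sparcl1 was not tested.

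**Figure D4:**
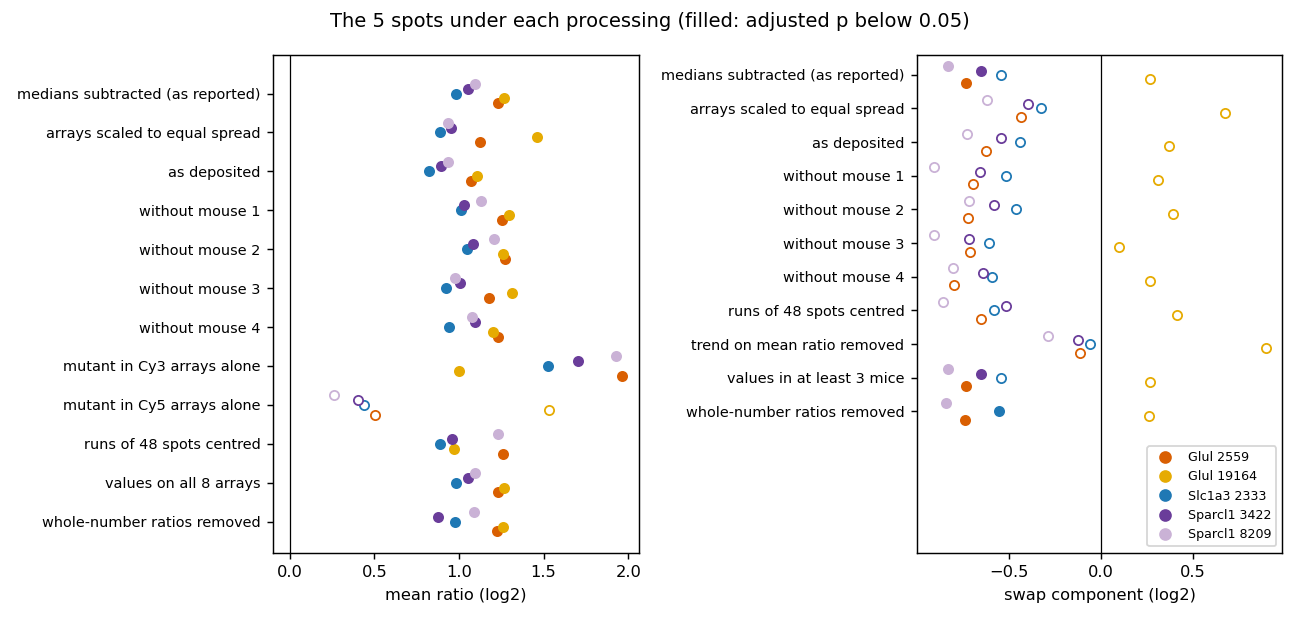
Mean ratio (left) and swap component (right) of the 5 spots, in log2, under each way of processing apart from names read at the same spot number; filled points have an adjusted p below 0.05. All mean ratios shown stay above 0 and lose the threshold only with the mutant in Cy5 alone, and the swap components keep their sign but are filled in few settings.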

How the data were processed

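RNA of 4 mutant brains and a wildtype pool (20 µg per labelling) was hybridised to 8 2-colour cDNA arrays, per the labels' protocols. The deposited values were taken as log2 ratios of the channels plus 1 constant per array. The constant was set from the highest value of each array, read as a ratio of 100000 that codes an empty denominator. On that scale 4.76% to 8.73% of an array's values lay at ratios of small whole numbers. The sources used here name no scanner, background correction, centring rule or numerator. The deposited array medians ran from -0.57 to -0.0045. Values at the code for an empty denominator (1 to 30 per array) and empty cells (221 to 553) were missing, which left 20211 to 20559 values per array. No column was left out. Spot intensities were not used here, so precision rests on the number of mice.

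Array medians were subtracted, and the 4 mouse values of each quantity were tested against 0 with limma 3.58.1 under R 4.3.3 (an intercept, lmFit, eBayes), with Benjamini-Hochberg adjustment over all spots or genes and a threshold of 0.05. The mean ratio needed a value in every mouse and the swap component values on all 8 arrays. P-values leave out the spread of the pool. Spots of a gene were averaged for tests by gene. Names followed the platform annotation (12771 spots with 1 symbol, none with several, 8023 with none, all 12771 found in the RefSeq table) moved by 11 spots and used up to annotation probe 20000.

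Named were every spot of the members and Adarb1, the 3 nearest genes to each member, the measured genes of the cycle, potassium and SPARC lists, and up to 4 called genes of the other lists. Gfap, Gpc6, Cacna2d1, the astrocyte markers below 0 and the single spots of list genes were added after their values were seen. Members and lists were chosen with earlier results of these data known. Alternatives were values as deposited, equal array spread, runs of 48 spots centred, whole-number ratios up to 10 (within 0.001) removed, other completeness rules, single orientations, each mouse left out and names at the same spot number. Removal of the trend on the mean ratio was chosen after seeing the data.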

Additional observations from a re-analysis of the deposited data

Results flagged for a closer look

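Of 20 sets of 4 mice examined at the 5 spots (both quantities and both orientations), 1 held a mouse set apart from the other 3. Slc1a3 with the mutant in Cy3 read 1.57 in mouse 2, against 1.509 to 1.513 in the others, so the gap was 0.934 of the range, above Dixon's critical value for 4 values. The range itself is only 0.06 on the log2 scale. Chance sets about 1 in 20 such sets apart.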

How the results depend on the processing

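Apart from the naming alternative, the mean ratios and swap components of the 5 spots kept their direction under every alternative run, and mean ratios lost the threshold only when the 4 mutant-in-Cy5 arrays stood alone. Counts of calls were less stable. The 6256 spots and 2505 genes called in the mean ratio became 0 and 0 on those 4 arrays (limma, 4748 and 2007 at an unadjusted p below 0.05) and 2483 to 3931 spots and 1164 to 1742 genes without 1 mouse. As deposited, positive calls made up 37.4% of the spots called, against 56.1% with medians subtracted, and the median of all spots was -0.25 against -0.09. The 1473 spots and 641 genes called in the swap component became 0 and 0 as deposited (5785 and 2423 at an unadjusted p below 0.05), with arrays scaled (3815 and 1730), with the trend removed (2997 and 1309) and without any 1 mouse (4106 to 5417 and 1781 to 2337). With runs of 48 spots centred they were 0 (4958 unadjusted) and 275, and with values in at least 3 mice 949 spots. Removal of whole-number ratios raised them to 2149 and 939, of fewer tested, and the mutant-in-Cy3 arrays alone gave 6625 spots and 2622 genes in the mean ratio. Averaged over its spots, Glul turned from -0.23 to 0.12 in the swap component with arrays scaled and to 0.39 with the trend removed. Adarb1 spot 14946 turned to 0.0077 as deposited. Names at the same spot number point to other spots, and there the mean ratio was -0.68 for Glul spot 19164, -0.009 for Slc1a3 and -0.43 and -0.0769 for Sparcl1 (by gene -0.0306, -0.009 and -0.25), and the swap component of Sparcl1 0.10 for spot 3422 and 0.0426 by gene. The causes were not tested. Each mouse's 2 arrays were joined within the mouse in both quantities, and the 2 spots of a gene were compared within mice. Mutant and wildtype mice could not be paired, because the wildtype RNA was 1 pool. Without spot intensities, weak spots show only where their ratio is one of small whole numbers.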
